A study of Sus scrofa with 17 samples.

Results

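BST2, the gene of tetherin (ENSSSCG00000033453), was followed across 17 perfused porcine kidneys. It is 1 of the 26560 genes in the count table. It was chosen by its normalised counts in these same kidneys, whose group means stood in the order of the number of extracellular vesicle injections, so that its own levels and fold changes are given as a description and carry no test. RefSeq places porcine BST2 at chr2:60305306-60308295 of Sscrofa11.1, with no other RefSeq gene overlapping it.

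The kidneys came from wild-type Dutch Landrace pigs aged 6 months to 1 year, labelled female, 1 kidney from each slaughterhouse animal. All had 32 min of warm ischemia, 24 h of hypothermic machine perfusion (HMP) and 5 h of normothermic machine perfusion (NMP) with blood of the same animal, and were sampled when NMP ended. G1 (5 kidneys) received PBS in HMP and in NMP, so 0 vesicle injections. G2 (6 kidneys) received vesicles of porcine urine progenitor cells (pUPC-EVs) in HMP, 1 injection. G3 (6 kidneys) received them in HMP and again in NMP, 2 injections. The vesicle pellets were pooled before use, and there was no group with an injection in NMP alone, so a second dose and a dose given in NMP cannot be told apart.

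Tetherin is a small membrane protein that cells make in response to interferon. It is fixed in the membrane at both ends, by a helix near its N-terminus and by a GPI anchor at its C-terminus, and pairs with a second copy through a long coiled coil. It is known for holding budding enveloped viruses on the surface of the cell that made them, and it can hold exosomes in the same way. Type I interferon acts through the receptor IFNAR1/IFNAR2, the kinases JAK1 and TYK2 and a transcription factor complex that includes STAT2 and IRF9, which switches on a shared set of antiviral genes. ISG15, a ubiquitin-like modifier, is a much used readout of that set.

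Total counts ran from 19270046 to 24736473 per kidney. Although the labels give all animals as female, 7 of the 17 libraries held transcripts of Y-linked genes. EIF1AY had 403 to 589 counts and KDM5D 9 to 90 in these 7, against at most 4 and 1 in the other 10. They were G1 kidney 5, G2 kidney 2 and all G3 kidneys except kidney 3, which makes 1 of 5, 1 of 6 and 5 of 6, so results are also given within each set. A wrong sex label and an exchanged sample cannot be told apart from these files, and the groups are used as labelled. The authors' sample codes form 3 runs of consecutive numbers, called code series A, B and C here, whose meaning is not stated. In series A there were 2 G1, 2 G2 and 1 G3 kidneys. Series B consisted of 2 G1 kidneys and 1 G3 kidney, and series C of 1 G1, 4 G2 and 4 G3 kidneys. The p-values below measure the spread between kidneys of separate animals.

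BST2 was detected in every kidney. In G1 its counts were 40, 97, 58, 49 and 54 in kidneys 1 to 5. In CPM, that is, counts scaled to a common TMM-normalised library size, these were 1.73, 4.43, 2.76, 2.48 and 2.35. Kidney 2 stood highest in G1, and the other 4 lay between 1.73 and 2.76 CPM.

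In G2 the BST2 counts were 82, 127, 163, 135, 62 and 174 in kidneys 1 to 6. The normalised levels were 3.76, 5.08, 8.29, 6.09, 2.77 and 9.42 CPM. Kidneys 1 and 5 fell inside the range of G1, and kidneys 2, 3, 4 and 6 lay above it.

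In G3 the counts were 101, 197, 423, 189, 303 and 343. The normalised levels were 4.01, 9.59, 16.6, 8.62, 14.4 and 17.5 CPM. Kidney 1 fell inside the range of G1, kidney 4 inside that of G2, and kidneys 2, 3, 5 and 6 lay above every kidney of G1 and G2.

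**Figure D1:**
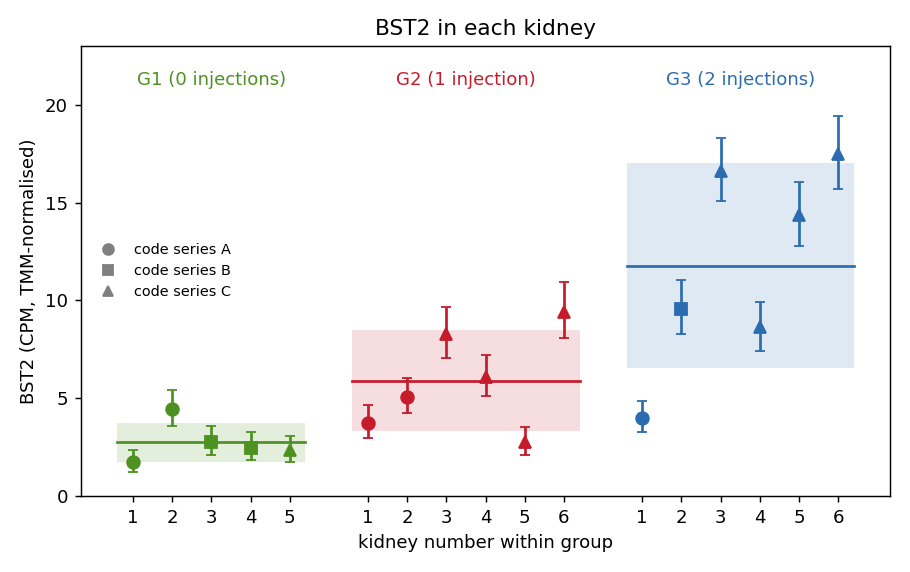
Normalised BST2 level (CPM, linear axis from 0) in each of the 17 kidneys, with vertical bars for the 95% Poisson interval of the count, horizontal lines for group means, shading for 1 SD and symbols for code series. The 5 G1 kidneys lie between 1.73 and 4.43 CPM, G2 between 2.77 and 9.42 and G3 between 4.01 and 17.5, and the lowest G3 kidney is the one of code series A.

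The mean level of G1 was 2.75 ± 1.01 CPM (SD, n = 5). That of G2 was 5.90 ± 2.58 CPM (SD, n = 6), and that of G3 was 11.8 ± 5.25 CPM (SD, n = 6). The order was therefore G1, G2, G3, and each pair of neighbours overlapped. The SD grew with the mean, with a coefficient of variation of 36.8%, 43.6% and 44.6%. The highest kidney had 2.56 times the level of the lowest in G1, 3.40 times in G2 and 4.36 times in G3. The 95% Poisson interval, which covers counting error only, was 1.24 to 2.36 CPM for the lowest kidney (40 counts) and 15.7 to 19.4 CPM for G3 kidney 6.

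The fitted log2 fold change of BST2 was 2.08 (SE 0.331) for G3 against G1, a fold of 4.23, and 5 of 6 G3 kidneys lay above all of G1. For G2 against G1 it was 1.10 (SE 0.321), a fold of 2.14, with 4 of 6 G2 kidneys above all of G1. For G3 against G2 it was 1.00 (SE 0.332), a fold of 2.00, with 4 of 6 G3 kidneys above all of G2. With the number of injections as a straight line through all 17 kidneys, the slope was 1.05 (SE 0.173) log2 units per injection. These comparisons share kidneys. At an adjusted p under 0.05 (edgeR's quasi-likelihood test), 2 of 25719 genes tested passed between G3 and G1 (0.00778%), and BST2 was not among them. Both were lower in G3: BCAT2, a branched-chain aminotransferase (log2 fold change -0.77, SE 0.104, adjusted p = 0.0229 in edgeR), and ENSSSCG00000050204, which has no symbol here (-3.37, SE 0.474, adjusted p = 0.0229 in edgeR). They are named because the count is small, after their values were seen. DESeq2 called 29 genes between G3 and G1, BST2 among them, but BST2 was chosen on these values and gains no support from that. Since the samples were whole biopsies, fewer cells of a type and less RNA per cell cannot be told apart in any value given here.

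The difference of mean log2 CPM of BST2 was not of 1 size in the 3 code series. Between G3 and G1 it was 0.51 in series A, 1.84 in series B and 2.51 in series C. Between G2 and G1 it was 0.64 in series A and 1.33 in series C. Between G3 and G2 it was -0.12 in series A, where G3 had a single kidney lying between the 2 kidneys of G2, and 1.18 in series C with 4 kidneys a group. Series B had no G2 kidney. When code series entered the fit as a covariate, the log2 fold change was 1.67 (SE 0.346) for G3 against G1, 0.93 (SE 0.388) for G2 against G1 and 0.83 (SE 0.299) for G3 against G2. Whether series differed in this was not tested.

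The order of the groups was also read separately in kidneys with and without Y-linked transcripts. Among the 10 without them, BST2 was 1.73 to 4.43 CPM in 4 kidneys of G1, 2.77 to 9.42 in 5 of G2 and 16.6 in the only one of G3. Among the 7 with them, it was 2.35 CPM in the G1 kidney, 5.08 in the G2 kidney and 4.01 to 17.5 in 5 kidneys of G3. The difference of mean log2 CPM between G3 and G1 was 2.58 without and 2.00 with Y-linked transcripts, and between G2 and G1 it was 1.00 and 1.08. With their presence as a covariate, the log2 fold change of G3 against G1 was 2.36 (SE 0.387).

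ISG15 (ENSSSCG00000040575), at chr6:63363201-63364211 in RefSeq's Sscrofa11.1 annotation, followed the same order of means over a narrower range. In G1 it had 203, 150, 265, 336 and 241 CPM. In G2 it had 370, 320, 407, 225, 203 and 575 CPM, and in G3 401, 390, 593, 273, 401 and 747 CPM. The lowest G3 kidney by ISG15 was kidney 4, which fell inside the range of G1, while the lowest by BST2 was kidney 1.

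For ISG15 the G1 mean was 239.1 ± 69.4 CPM (SD, n = 5), the G2 mean 349.9 ± 136 CPM (SD, n = 6) and the G3 mean 467.6 ± 171 CPM (SD, n = 6). The log2 fold change of ISG15 was 0.95 (SE 0.231, adjusted p = 0.460 in edgeR) for G3 against G1. It was 0.55 (SE 0.250, adjusted p = 0.840 in edgeR) for G2 against G1 and 0.42 (SE 0.259, adjusted p = 0.948 in edgeR) for G3 against G2. ISG15 thus did not pass the test in any of the 3 comparisons. The slope per injection was 0.48 (SE 0.133) log2 units for ISG15, against 1.05 for BST2. In code series A the order of the genes was the other way round, with a difference between G3 and G1 of 1.20 for ISG15 and 0.51 for BST2. In series B it was 0.38 for ISG15 and 1.84 for BST2, and in series C 0.96 and 2.51.

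The gap between the genes in a kidney, log2 CPM of BST2 minus log2 CPM of ISG15, ran from -7.03 to -5.06 in G1, from -6.58 to -5.19 in G2 and from -6.61 to -4.80 in G3. As BST2 counts per 100 ISG15 counts this was 0.855, 2.95, 1.04, 0.738 and 0.974 in G1. It was 1.02, 1.59, 2.04, 2.71, 1.36 and 1.64 in G2, and 0.999, 2.46, 2.81, 3.15, 3.58 and 2.34 in G3. G1 kidney 2, which had the lowest ISG15 of all 17 kidneys and the highest BST2 of G1, lay inside the range of G3, as did G1 kidney 3. G3 kidneys 1, 2, 3 and 6 lay inside the range of G1, so that this ratio overlapped widely between the groups.

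Across the 17 kidneys, log2 CPM of BST2 and ISG15 had a Pearson r of 0.710 and a Spearman rho of 0.716, given as a description because both genes were measured in the same libraries and both means follow the groups. Without G1 kidney 2 and G3 kidney 6, which lay farthest from the median of ISG15, r was 0.710. As deviations from the group means, r was 0.441 and rho 0.503, and r was 0.229 without G2 kidney 6 and G3 kidney 6. In G1 the kidney highest for BST2 (kidney 2) was the lowest for ISG15, and the kidney highest for ISG15 (kidney 4) had the median BST2 of the group. Within code series C r was 0.830 (n = 9). Within G2 r was 0.71 and rho 0.77 (n = 6), and within G3 r was 0.58 and rho 0.83 (n = 6). No r was calculated within G1, so these positive values do not cover the kidneys without vesicles. Leaving out G1 kidney 2 alone raised the r of deviations to 0.638, and leaving out G2 kidney 5 alone lowered it to 0.330. The relation within groups thus moved in both directions with the kidneys left out.

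**Figure D2:**
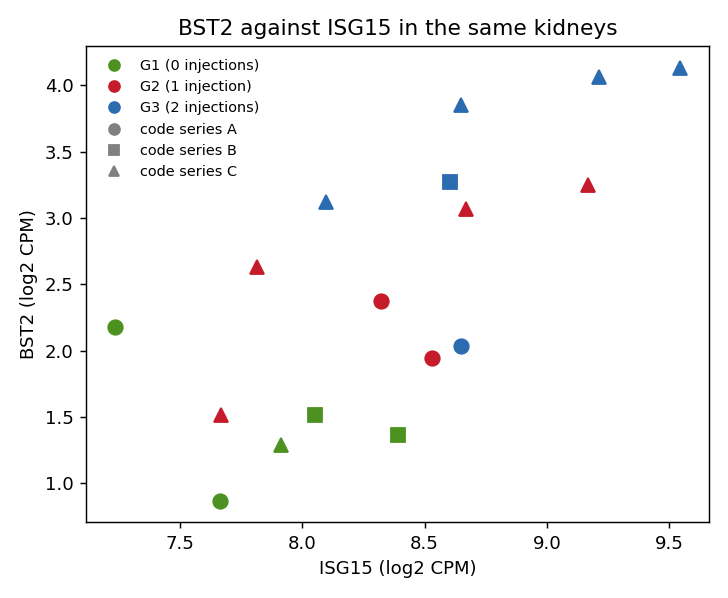
Log2 CPM of BST2 (vertical) against log2 CPM of ISG15 (horizontal) in the same 17 kidneys, coloured by group with symbols for code series. Of the G3 kidneys, 4 lie above all others in BST2, kidney 4 lies within the range of G2 and kidney 1 within that of G1, and the G1 kidney at the far left (kidney 2) has the lowest ISG15 and the highest BST2 of its group (r = 0.710 over 17 kidneys).

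BST2 was then set beside a list of 70 other interferon-stimulated genes, of which 62 could be matched to the table by symbol and the other 8 were not analysed here. Between G3 and G1, 46 of the 62 (74.2%) were higher and 0 lower at an unadjusted p under 0.05, where 1.94% of all genes tested were higher and 2.79% lower. None of the 62 passed at an adjusted p under 0.05 in edgeR, and 11 did in DESeq2, all higher. DESeq2 called 21 genes higher of the 23217 with an adjusted p (0.0905%). The median log2 fold change of the 62 was 0.77, against -0.02 over all genes, and 59 of 62 were above 0, as were 46.9% of all genes. None of the 62 had a fold change as large as that of BST2, which 1.83% of all genes reached. The nearest were the antiviral enzyme RSAD2 (1.80, SE 0.414), the chemokine CXCL11 (1.67, SE 0.546), IFIT3, which binds viral RNA complexes (1.61, SE 0.341), and the helicase-like DDX60 (1.53, SE 0.346). The shares of all genes given here and below include genes with very few counts. Of the 26560 genes, 13711 had a mean of at least 1 CPM, while 61 of the 62 list genes did. The 6 genes whose G3 kidneys all lay above all G1 kidneys were SP110, TRIM25, TAP2, XAF1, CMPK2 and IFIT3, where 0.124% of all genes tested were separated in this way.

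Other members are given as examples of known arms of the response. Of the antiviral effectors, the GTPase MX1 had a log2 fold change of 1.19 (SE 0.265) and the RNA-activated kinase EIF2AK2 0.68 (SE 0.229) between G3 and G1. Of the RNA sensors, RIGI had 1.00 (SE 0.301) and IFIH1 0.73 (SE 0.219). Of antigen processing, the peptide transporter subunit TAP2 had 0.79 (SE 0.155) and the immunoproteasome subunit PSMB8 0.89 (SE 0.198), while PSMB9 had 0.61 (SE 0.303) and B2M 0.16 (SE 0.137) and neither passed at an unadjusted p under 0.05. Around ISG15 itself, the ligase HERC5 had 1.04 (SE 0.234) and the protease USP18, which takes ISG15 off its targets, 1.05 (SE 0.292). The adjusted p of these 10 in edgeR ran from 0.291 (TAP2) to 0.813, and the 3 members below 0 were LGALS3BP (-0.24), IFI30 (-0.11) and IFI35 (-0.05).

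Between G2 and G1, only ISG15 of the 62 was higher at an unadjusted p under 0.05 (1.61% of the list, against 1.42% of all genes tested), and UBA7, the enzyme that activates ISG15, was lower (log2 fold change -0.66, SE 0.294, where 2.09% of all genes tested were lower). The median of the list was 0.11, against -0.01 over all genes, with 47 of 62 above 0, where 49.3% of all genes were. BST2, at 1.10, was above all 62, while 8.21% of all genes tested, those with very few counts included, reached that value. The nearest were RSAD2 (0.98, SE 0.540), USP18 (0.70, SE 0.347) and IFIT3 (0.66, SE 0.414). The share of list genes past that threshold was therefore close to the background after 1 injection, and for 0 of the 62 did all G2 kidneys lie above all G1 kidneys, as 0.0817% of all genes did. By this test (edgeR) 0 genes of all 25699 passed at an adjusted p under 0.05 between G2 and G1, with 901 at an unadjusted p under 0.05 and 1 called by DESeq2.

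Between G3 and G2, 39 of the 62 (62.9%) were higher and 0 lower at an unadjusted p under 0.05, where 1.61% of all genes tested were higher and 1.52% lower, and after adjustment none passed in edgeR and 2 in DESeq2, which were the only genes it called higher (0.00779% of 25678). The median was 0.62, with 59 of 62 above 0, as were 49.7% of all genes. For 5 of the 62 all G3 kidneys lay above all G2 kidneys, where 0.0584% of all genes did. Here 6 of the 62 had a larger fold change than the 1.00 of BST2, which 9.78% of all genes reached. They were UBA7 (1.77), CXCL11 (1.74), DDX60 (1.54), the 2'-5' oligoadenylate synthetase family members OASL (1.36) and OAS2 (1.04), and IFI44L (1.04).

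With the number of injections as a straight line, 48 of the 62 (77.4%) had a slope above 0 and 0 a slope below 0 at an unadjusted p under 0.05, where 2.55% and 3.57% of all 26560 genes did. The median slope of the list was 0.41 log2 units per injection, 59 of 62 slopes were above 0 (46.5% of all genes), and none reached the 1.05 of BST2, which 2.18% of all genes reached. By edgeR 0 genes passed at an adjusted p under 0.05 in this fit, with 1625 (6.12%) at an unadjusted p under 0.05 and 12 called by DESeq2.

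The steps are set side by side as a description, since BST2 was chosen for the order of its group means. For 53 of the 62 the fitted difference of G3 from G2 was larger than that of G2 from G1. Over all 62 the median was 0.11 for the first step and 0.62 for the second. DDX60 had 0.00 and 1.54, IFI44L -0.18 and 1.04, EIF2AK2 -0.09 and 0.78, and IFI44 0.11 and 0.86. BST2 had 1.10 and 1.00, ISG15 0.55 and 0.42, and RSAD2 0.98 and 0.83. No difference between BST2 and the list was tested, and all steps rest on the same G2 kidneys.

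**Figure D3:**
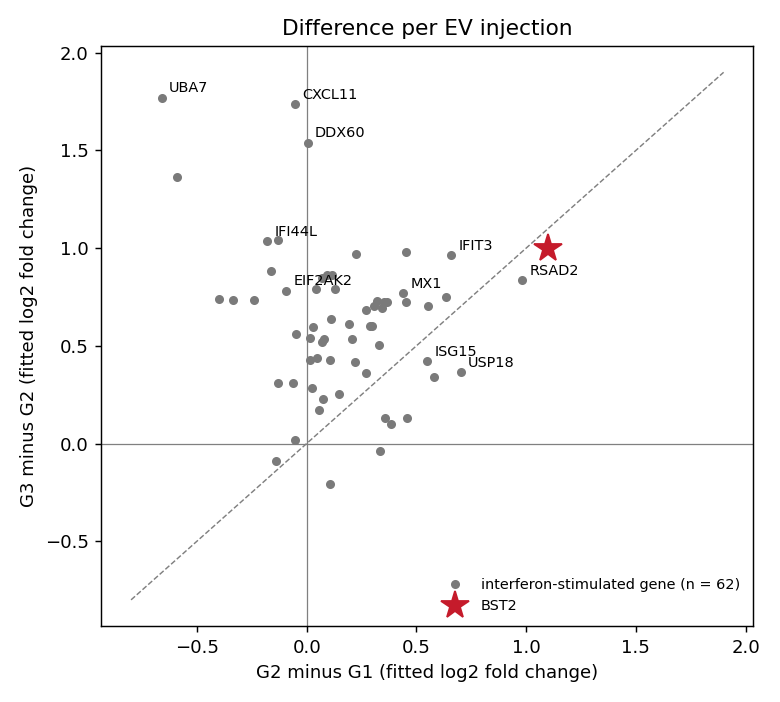
Fitted log2 fold change of G3 minus G2 (vertical) against G2 minus G1 (horizontal) for BST2 (star) and 62 interferon-stimulated genes (points), with the dashed line where both steps are equal. Of the list genes, 53 of 62 lie above the line, and their median on the horizontal axis is 0.11. BST2 (1.10, 1.00) lies farthest right, next to RSAD2 (0.98, 0.83).

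The list was read within the code series as well, without a test between series. In series A, where BST2 differed by 0.51 between G3 and G1, the median of the 62 was 1.01, with 60 above 0 and 49 at or above BST2. In series B the median was 0.18 and in series C 0.50, and none of the 62 reached BST2 in either. Between G2 and G1 the median was 0.29 in series A and -0.12 in series C, where BST2 differed by 1.33. Between G3 and G2 it was 0.65 in series A, where BST2 differed by -0.12 and 58 of the 62 were at or above it, and 0.72 in series C, where BST2 differed by 1.18 and 4 of the 62 were. Within kidneys without Y-linked transcripts the median between G3 and G1 was 1.27 (1 kidney against 4), and within those with them 0.27 (5 against 1). Between G2 and G1 the median was 0.32 without them (5 kidneys against 4, 52 of 62 above 0) and -0.49 with them (1 against 1, 8 of 62 above 0), while BST2 differed by 1.00 and 1.08. With their presence as a covariate, 44 of the 62 were higher between G3 and G1 at an unadjusted p under 0.05 (edgeR).

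Of 6 interferon ligands upstream of these genes, 4 were matched by symbol and the other 2 were not analysed here, nor were the interferon alpha genes. IFNB1, IFNG, IFNK and IFNE each had a mean under 1 CPM and at most 20 counts in any kidney. None of the 4 differed at an unadjusted p under 0.05 in any comparison. Of all genes, 4.73% (G3 against G1), 3.51% (G2 against G1), 3.13% (G3 against G2) and 6.12% (injections) did, so 0 of 4 is near the background. IFNE was lowest in G3, with a log2 fold change of -0.98 (SE 0.559) against G1 and 5 of 6 G3 kidneys below all of G1. The others had 1.11 (IFNB1, SE 0.802), 0.87 (IFNK, SE 0.817) and -0.17 (IFNG, SE 0.610), so that 2 of the 4 were above 0, all on few counts.

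Of 18 interferon receptor and signalling genes, 5 were higher and 0 lower between G3 and G1 at an unadjusted p under 0.05, where 1.94% of all genes were higher and 2.79% lower, with a median log2 fold change of 0.20. IFNAR2, a chain of the type I receptor, had 0.37 (SE 0.104) and was above all G1 kidneys in 6 of 6 G3 kidneys. It was the only 1 of the 18 separated in this way, as 0.124% of all genes tested were. The other chain, IFNAR1, had 0.31 (SE 0.153), with 2 of 6 G3 kidneys above all of G1, and did not pass. The transcription factor subunits IRF9 and STAT2 had 0.43 (SE 0.133) and 0.47 (SE 0.173), IRF7, which amplifies interferon production, 0.58 (SE 0.218), and IL10RB, a chain of the type III receptor, 0.34 (SE 0.142). IRF9, STAT2 and IRF7 are also in the list of interferon-stimulated genes. Of 7 genes that damp the response, 3 were higher between G3 and G1 at an unadjusted p under 0.05 (1.94% of all genes), namely USP18, which is also in the list of interferon-stimulated genes, the ubiquitin ligase TRIM21 (0.78, SE 0.201) and SOCS5 (0.32, SE 0.141). SOCS1 (0.15) and SOCS3 (0.10) did not pass, and none of these 25 genes passed after adjustment.

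Of 17 other factors that act on membranes or on budding, 14 were matched by symbol, and IFITM1, IFITM2 and IFITM3 were not analysed here. Of the 14, 3 were higher and 0 lower between G3 and G1 at an unadjusted p under 0.05 (1.94% and 2.79% of all genes), with a median of 0.14. All 3, RSAD2, ISG15 and TRIM25, are interferon-stimulated genes of the list above. SERINC3 and SERINC5, membrane proteins that lower the infectivity of virions, had 0.16 (SE 0.106) and -0.30 (SE 0.145), and GBP5 had -0.45 (SE 0.281).

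Genes for the release of vesicles, the process that tetherin can hold back, had small fold changes. Of 41 genes of the ESCRT machinery and vesicle release, 36 were matched by symbol, and the rest, TSG101 and PDCD6IP among them, were not analysed here. Of the 36, 1 was higher and 0 lower between G3 and G1 at an unadjusted p under 0.05. This share was near the 1.94% of all genes higher and 2.79% lower, and the median was 0.05. The gene was SYTL4, an effector of RAB27 in vesicle docking (0.34, SE 0.126). RAB27A had 0.11 (SE 0.144), VPS4A, the ATPase that takes ESCRT-III apart, 0.14 (SE 0.108), and SDCBP, the exosome adaptor syntenin, 0.18 (SE 0.143). Of 10 tetraspanins of vesicles 9 were matched, and TSPAN9 alone passed that threshold and was lower (-0.29, SE 0.135, where 2.79% of all genes were lower). The vesicle markers CD63, CD81 and CD9 had 0.09, -0.02 and 0.02.

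Partners of the tetherin protein did not reach the threshold. None of 13 genes for its endocytosis, ubiquitination and sorting passed at an unadjusted p under 0.05 in any of the 3 comparisons, where 4.73% (G3 against G1), 3.51% (G2 against G1) and 3.13% (G3 against G2) of all genes did. The median between G3 and G1 was 0.05. The clathrin heavy chain CLTC had 0.10 (SE 0.185) and MARCHF8, a membrane ubiquitin ligase, 0.09 (SE 0.139). Of 28 genes that build or attach GPI anchors 25 were matched, and none of them passed either, with a median of 0.00. The same held for the 15 matched of 18 NF-kB targets, with a median of -0.08 and 4 of 15 above 0.

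The genes whose log2 CPM was most like that of BST2 were ranked among the 13710 others with a mean of at least 1 CPM. Over the 17 kidneys they were LGALS8 (r = 0.888), TRIM26 (0.872), TRIM25 (0.846), BCL2L14 (0.818), EXOC6B (0.812), TDRD7 (0.788), MX1 (0.785), N4BP1 (0.773), PTBP3 (0.773) and IFI44 (0.770). TRIM25, TDRD7, MX1 and IFI44 are in the list of interferon-stimulated genes, and ISG15 stood at place 45. LGALS8, a galectin that marks damaged endosomes, went from 61.8 CPM in G1 to 67.7 in G2 and 80.1 in G3 (log2 fold change of G3 against G1 0.37, SE 0.104). TRIM26, a ubiquitin ligase, went from 20.2 to 25.1 and 31.0 CPM (0.61, SE 0.183). The median r of the list of interferon-stimulated genes was 0.624, with 45 of 61 above 0.5, against a median of 0.04 and 563 of 13710 over all genes.

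As deviations from the group means, which leave out the order of the groups, the most alike were CAND1 (r = 0.873), CCDC71L (0.816), TIGD5 (0.812), DHX8 (0.810), TRIM26 (0.794), HUNK (0.794), IP6K1 (0.790), SGPL1 (0.787), PCDH1 (0.776) and CCSER2 (0.769). None of these 10 is in the list of interferon-stimulated genes, and TRIM26 is the only one in both rankings. ISG15 stood at place 1371. The median r of the list was 0.360, with 18 of 61 above 0.5, against 0.05 and 837 of 13710 over all genes. CAND1, an exchange factor of cullin ubiquitin ligases, had 55.4, 60.5 and 59.5 CPM in G1, G2 and G3, against 2.75, 5.90 and 11.8 for BST2. All these values come from the same 17 libraries and the genes were picked as extremes. G2 kidney 6 and G3 kidney 6 had the lowest TMM scaling factors (0.872 and 0.825), with 18813 and 18968 genes detected. G3 kidney 1 had the most genes detected (21049). Whether the likeness within groups followed such differences between libraries was not tested.

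**Figure D4:**
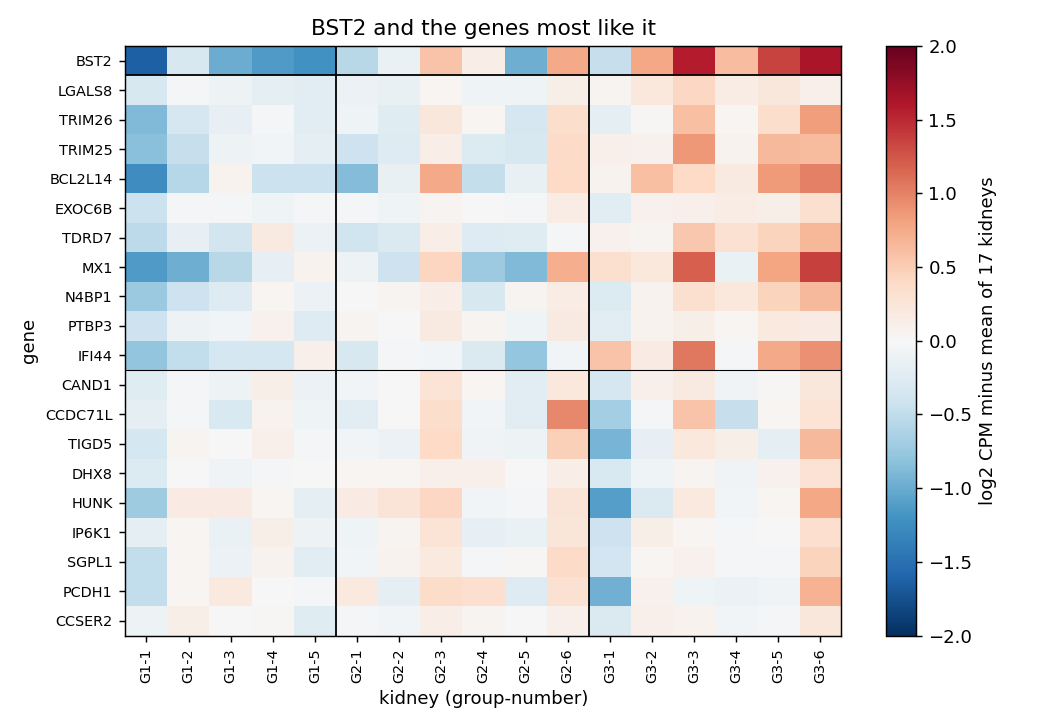
Log2 CPM minus the mean of 17 kidneys (colour, from -2 to 2) for BST2 (top), the 10 genes most like it over all kidneys (upper block) and the others most like it by deviations from group means (lower block), with kidneys in columns and black lines between groups. The upper block mostly turns from blue in G1 to red in G3 as BST2 does. EXOC6B and PTBP3 stay pale, and TRIM26, EXOC6B, N4BP1 and PTBP3 are below 0 in G3 kidney 1, as BST2 is. The lower block mostly shows G1 kidney 1 and G3 kidney 1 low and G2 kidney 6 and G3 kidney 6 high in their groups.

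The expressed protein-coding neighbours of BST2 on chromosome 2 had smaller fold changes than BST2. MVB12A, an ESCRT-I subunit 29333 bases away, had 22.8 CPM in G1, 26.9 in G2 and 27.0 in G3, with a log2 fold change of G3 against G1 of 0.23 (SE 0.131). On the other side, PLVAP, a protein of endothelial diaphragms 16269 bases away, had 47.1, 56.5 and 44.7 CPM (-0.08, SE 0.350). GTPBP3 and ANO8 had log2 fold changes of -0.07 (SE 0.240) and -0.21 (SE 0.177), and the adjusted p of these 4 genes in edgeR was 0.813 to 0.977. TMEM221 and NXNL1 had at most 2 counts in any kidney and no fold change is given for them.

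**Figure D5:**
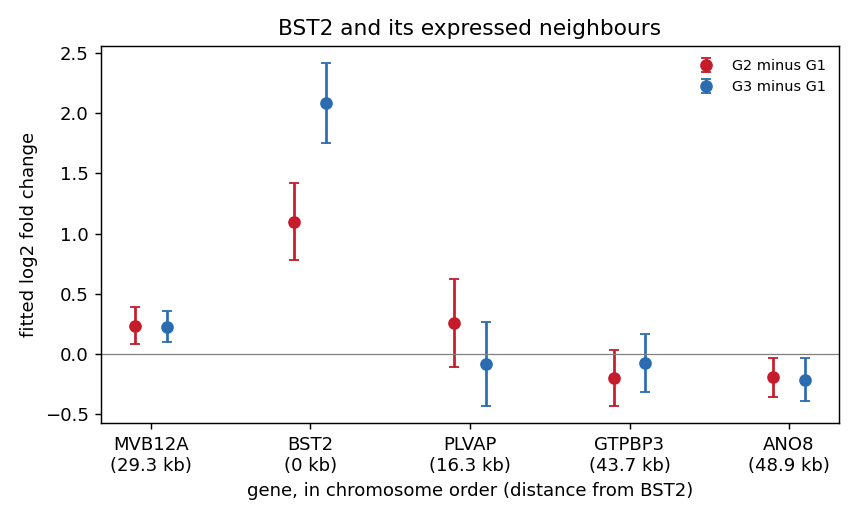
Fitted log2 fold change (vertical, bars are SE) of BST2 and its 4 expressed protein-coding neighbours in chromosome order, with the distance of each from BST2, for G2 minus G1 (red) and G3 minus G1 (blue). BST2 stands at 1.10 and 2.08, and the neighbours lie between -0.21 and 0.26.

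Markers of the cell types in a kidney biopsy were compared with BST2. The 12 tubule markers were all matched by symbol and summed to 13520 to 18090 CPM in G1, 14160 to 25790 in G2 and 13160 to 24320 in G3. Their sum had an r of 0.542 with BST2 over 17 kidneys and of 0.615 as deviations from the group means, and 0 of the 12 passed between G3 and G1 at an unadjusted p under 0.05, where 4.73% of all genes did. The part of tubule RNA in the level of BST2 was not tested.

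Of 14 endothelium markers 11 were matched by symbol, with a summed level of 909.2 to 1063 CPM in G1, 719.8 to 1463 in G2 and 758.3 to 1464 in G3. ERG (0.46, SE 0.124) and PECAM1 (0.31, SE 0.135) were higher between G3 and G1 at an unadjusted p under 0.05 (2 of 11, against 1.94% of all genes), and the sum had an r of 0.133 with BST2. Of 16 leukocyte markers 14 were matched, with sums of 112.5 to 153.9, 113.9 to 194.3 and 128.0 to 154.8 CPM and an r of -0.106. Of 14 markers of plasmacytoid dendritic cells and plasma cells, cells known for interferon or for high tetherin, 11 were matched. Their sums were 81.9 to 125.2, 66.1 to 166.1 and 69.2 to 136.2 CPM, the r was -0.100, and only TCF4, which other cells also express, was higher (1 of 11, 0.52, SE 0.157). Their defining genes SPIB and TLR9 had a mean under 1 CPM. As deviations from group means, r with BST2 was -0.174 for the endothelium sum, -0.319 for the leukocyte sum and -0.333 for the plasmacytoid and plasma cell sum. At an unadjusted p under 0.05, 1 of 4 podocyte markers was lower between G3 and G1 (2.79% of all genes), and no stroma, red cell or tubule injury marker passed. Between G2 and G1, 2 of 6 stroma, 1 of 4 podocyte and 1 of 5 tubule injury markers were higher (1.42%). So were 1 of 12 tubule, 1 of 14 leukocyte and 1 of 11 plasmacytoid and plasma cell markers, while no endothelium or red cell marker passed. Between G3 and G2, 2 of 6 stroma, 1 of 4 podocyte and 1 of 4 red cell markers were lower (1.52%). The red cell sum, at most 5.4 CPM, had an r of -0.480 with BST2.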

How the data were processed

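The authors trimmed reads with cutadapt 4.0, aligned them with STAR to Sscrofa11.1 and deposited the unnormalised counts of each gene in every kidney. The counting program and its strand setting are not given in the sources used here. The libraries were stranded mRNA libraries. A deposited table of the authors' comparison of G3 with G1, which holds fold changes and p-values, was not used. Symbols were known for 15093 of 26560 genes.

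Counts were analysed in R 4.3.3 with the quasi-likelihood test of edgeR 4.0.16 (TMM, Benjamini-Hochberg adjustment, leaving out genes without a count (minimum 1) in the groups compared), fitted on all genes for each pair of groups and for the number of injections. The SE of a fold change or slope was its absolute value divided by the square root of the F statistic of that test. Log2 CPM used a prior count of 2. The alternatives were DESeq2 1.42.0, RLE size factors, edgeR's expression filter, all groups in the fit, a block for the number of the kidney, a term for code series, and fits that each dropped 1 kidney. The code series B and C alone and a term for Y-linked transcripts (EIF1AY at 100 counts or more) were added after seeing the data. The tests were tried on simulated data.

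BST2 and all lists were chosen with earlier results of these data known. Genes named in the text are BST2, ISG15, the 10 most like BST2 in each of 2 rankings, its 3 nearest protein-coding RefSeq neighbours on each side, and members of a list in the sentences on that list. The called genes BCAT2 and ENSSSCG00000050204 and the Y-linked EIF1AY and KDM5D were named after their values were seen. No sequences of BST2 were used.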

Additional observations from a re-analysis of the deposited data

Results flagged for a closer look

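The interferon lists gave 198 sets of values (66 genes, in each group). In 6 of these sets 1 kidney stood apart from the rest of its group by Dixon's criterion, where chance gives about 1 in 20 sets, or 9.9. HERC6 had 282.7 CPM in G3 kidney 6 against 183.6 in the next kidney, and EPSTI1 had 66.5 CPM in G3 kidney 6 against 40.1. SP110 had 20.6 CPM in G3 kidney 3 against 17.8, and CXCL11 had 54.3 CPM in G3 kidney 3 against 12.5. PNPT1 had 35.1 CPM in G2 kidney 1 against 29.7, and IRF7 had 62.8 CPM in G1 kidney 5 against 43.6. No kidney stood apart in this way for BST2 or ISG15.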

How the results depend on the processing

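BST2 kept its direction in every alternative run. Leaving out 1 kidney at a time gave log2 fold changes of 1.95 to 2.34 (G3 against G1), 0.91 to 1.34 (G2 against G1), 0.85 to 1.19 (G3 against G2) and 0.97 to 1.15 per injection, and the other alternatives gave 1.67 to 2.40, 0.89 to 1.39, 0.83 to 1.29 and 0.87 to 1.17. The correlation with ISG15 ran from 0.640 to 0.766 over 17 kidneys and from 0.330 to 0.638 within groups when 1 kidney was left out. Counts of genes at an adjusted p under 0.05 were small and moved. Between G3 and G1, 2 genes became 1 with edgeR's expression filter, 29 with DESeq2, 0 with all 3 groups in the fit (1126 at an unadjusted p under 0.05), 11 with the code series, 1 with code series B and C only, 1 with the term for Y-linked transcripts and 0 to 9 without 1 kidney. Between G2 and G1, 0 became 1 with DESeq2, 2 with the code series, 4 with series B and C only and stayed 0 to 0 without 1 kidney. Between G3 and G2, 0 became 3 with DESeq2, 1 with the Y-linked term and 0 to 5 without 1 kidney. For the number of injections, 0 became 12 with DESeq2, 2 with the code series, 2 with series B and C only, 1 with the Y-linked term and 0 to 3 without 1 kidney. BST2 was among the calls of 5 of 20 fits between G3 and G1 and 5 of 25 for injections, and, having been chosen on these values, gains no support from that. The interferon-stimulated genes higher at an unadjusted p under 0.05 between G3 and G1 numbered 37 to 50 over all alternatives, 26 to 47 between G3 and G2, and 0 to 4 between G2 and G1, where the count was 1.

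Kidney numbers pair nothing known, since each kidney is a separate animal. Of 15 same-numbered pairs 2 had a correlation of deviations over 0.1 (range -0.183 to 0.323), and 1 correlated best with its own number. With kidney number as a replicate block, 9 genes passed between G3 and G1, 0 between G2 and G1, 7 between G3 and G2 and 4 for injections, and BST2 had 1.87, 0.89, 0.96 and 0.94. In G1, 40 to 97 counts of BST2 stand behind each value.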
